A study of Mus musculus with 4 samples.

Results

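Genes of matrix breakdown were followed in human cells from tumors of humanized mice: 5 matrix metalloproteinases (MMP2, MMP9, MMP12, MMP14 and MMP19), 3 tissue inhibitors of metalloproteinases (TIMP1, TIMP2 and TIMP3) and fibronectin (FN1). They were chosen by name, and each of the 9 names matched 1 row among the 36601 genes of the count tables: MMP2 (ENSG00000087245), MMP9 (ENSG00000100985), MMP12 (ENSG00000262406), MMP14 (ENSG00000157227), MMP19 (ENSG00000123342), TIMP1 (ENSG00000102265), TIMP2 (ENSG00000035862), TIMP3 (ENSG00000100234) and FN1 (ENSG00000115414). The cells came from orthotopic tumors of MDA-MB-231, a human triple-negative breast carcinoma line, grown in 14 MISTRG mice that had been irradiated and given human CD34+ cells of fetal liver. MISTRG mice lack their own lymphocytes and carry human cytokine genes that sustain human myeloid cells. All mice bore the same tumor and the same type of graft; 7 were left untreated and 7 drank water with the drug maraviroc at 300 mg/l. Treatment began on day 21 of tumor growth and lasted 10 days, until the harvest on day 31. Cells were sorted for human CD45, tagged per mouse with hashtag antibodies, pooled and profiled by droplet 3' RNA-seq in 2 reactions, so mouse stroma and mouse leukocytes were outside the measurement. Reaction 1 held 4 untreated and 3 treated mice, and reaction 2 held 3 untreated and 4 treated mice.

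Metalloproteinases are zinc-dependent enzymes made as inactive precursors. MMP2 and MMP9, the gelatinases, cleave denatured collagen and basement membrane collagen, MMP12 is the macrophage elastase, MMP14 is anchored in the plasma membrane, where it cleaves collagen and activates pro-MMP2, and MMP19 is a secreted protease. TIMPs bind the active site of metalloproteinases; TIMP2 also takes part in the activation of pro-MMP2 by MMP14, and TIMP3 stays bound to the matrix. Fibronectin is a matrix glycoprotein that cells bind through integrins, and tumor-associated macrophages are a known source of proteases that cut it.

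After limits on detected genes (over 600 and up to 6000) and on the mitochondrial share, 11917 singlets of reaction 1 (median 3020 UMIs, or unique molecules) and 7900 of reaction 2 (median 9691.5 UMIs) were kept. Kept UMIs per mouse ranged from 5996882 to 14782548. The reactions had 136 barcode sequences in common, 31 of them among the kept cells. Cells were sorted into gates by the UMIs of marker genes that include none of the 9 genes: 5232 macrophages (C1QA, C1QB, C1QC, APOE, MSR1, CD163), 2020 monocytes (S100A12, VCAN, FCN1, S100A8, S100A9), 461 dendritic cells, 154 plasmacytoid dendritic cells, 221 mast cells, 5734 lymphoid cells and 234 tumor cells, while 5761 cells met no gate. Macrophages were divided further by marker UMIs into GLUT1 (hypoxia genes), MT1G (metallothioneins), CXCL10 (interferon-induced chemokines), IL1A (with CCL20 and IL6), LYVE1 and cycling states and into the remaining macrophages, which had none of these marks. Levels are given as CPM, the UMIs of a gene scaled by all UMIs of the same cells. Despite the sort for CD45, 234 cells met the tumor gate. It was set by UMIs of 8 tumor markers, so their high level there follows from the gate (3739 CPM in reaction 1 and 3798 in reaction 2). Reaction 1 was the shallower one, and its small gates held markers of other cells. In its mast gate the macrophage list reached 1327 CPM (49.5 in reaction 2) and in its tumor gate the lymphoid list reached 1263 (36.8 in reaction 2). The lymphoid gate was therefore used as the background for the proteases, since its cells should express little of them. For the TIMPs and FN1 it is given as a comparison only. Levels below are CPM of the summed cells of 1 mouse and 1 gate, where at least 10 cells were present. Such a level cannot by itself tell fewer expressing cells from less RNA per cell. Genes were compared between gates and not with each other.

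The UMIs of the proteases lay mostly in macrophages. The macrophage gate held 34.5% of all UMIs of the kept cells in reaction 1 and 35.1% in reaction 2. Of MMP12 UMIs it held 77.5% and 90.6%, of MMP9 69.6% and 83.1%, and of MMP14 70.3% and 87.4%. TIMP1 was spread differently, with 26.9% and 43.8% of its UMIs in monocytes, which held 9.60% and 16.2% of all UMIs. The tumor gate held 48.7% and 37.1% of TIMP3 UMIs and 22.9% and 20.6% of FN1 UMIs, although it held only 1.59% and 0.985% of all UMIs.

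**Figure D1:**
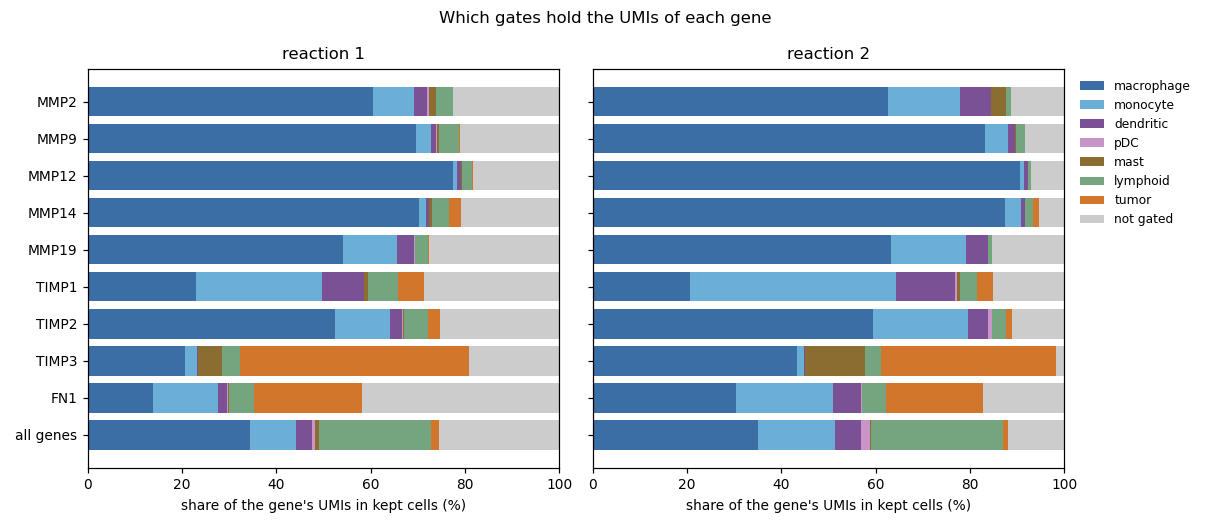
Share of each gene's UMIs (x axis, percent of UMIs in kept cells) that lay in each gate (colors), for reaction 1 (left) and reaction 2 (right), with all genes in the bottom bar. MMP12, MMP9 and MMP14 bars are mostly macrophage blue, TIMP1 has a large monocyte part, and the orange tumor part is largest for TIMP3 and FN1.

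MMP12, the macrophage elastase, separated macrophages from monocytes, dendritic, lymphoid and tumor cells, without overlap between mice. Across 14 mice its level in macrophages ranged from 611 to 2066 CPM (median 1033), and in monocytes from 7.97 to 58.8 (median 25.8). The lymphoid background differed between the reactions. In reaction 1 it was 27.9 to 60.5 CPM and overlapped the monocytes (13.2 to 58.8), and in reaction 2 it was 8.79 to 15.4, with monocytes (7.97 to 37.2) above it in 5 of 7 mice. Macrophages were above monocytes in 14 of 14 mice, by 39.2-fold (log2 difference 5.29 ± 0.17 SE, edgeR adjusted p = 3.23e-18). In that comparison 66.1% of the 10659 genes tested were called at an adjusted p under 0.05, so a call by itself sets no gene apart. Of the 9 genes, 8 were tested and called, 6 higher (33.2% of all genes) and 2 lower (32.9%) in macrophages. MMP2, 1 of the 6, passed the filter on low values only through the macrophages and is not read as a test. Against dendritic cells, with a median of 40.5 CPM in 13 mice, MMP12 was 16.1-fold higher in macrophages (log2 4.01 ± 0.34, adjusted p = 5.32e-09).

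MMP9, a gelatinase, followed MMP12 at the level of gates. Its level was 102 to 521 CPM in macrophages (median 301), 8.73 to 75.9 in monocytes (median 35.4) and 6.14 to 46.3 in lymphoid cells (median 11.6). No mouse had as much MMP9 in monocytes as the lowest macrophage value. The difference between macrophages and monocytes was 7.04-fold (log2 2.82 ± 0.21, adjusted p = 1.5e-11) and that between macrophages and dendritic cells 8.19-fold (log2 3.03 ± 0.23, adjusted p = 8.10e-10). In the latter comparison 52.1% of 9130 genes were called, and 6 of the 7 genes tested here were, 5 higher (26.4% of all genes) and 1 lower (25.7%) in macrophages. MMP14, 1 of the 5, was too low to be tested within dendritic cells and passed the filter only through the macrophages, so it is not read as a test.

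MMP14, the membrane-anchored activator of MMP2, had the narrowest spread of the proteases among macrophages. Its level was 75.8 to 145 CPM in macrophages (median 108) and 1.59 to 14.3 in monocytes (median 9.54), a difference of 10.6-fold (log2 3.41 ± 0.10, adjusted p = 6.23e-19). Lymphoid cells had 5.71 to 10.996 in reaction 1, within the monocyte range there, and 1.54 to 5.40 in reaction 2, below all monocyte values of that reaction (7.40 to 14.3). MMP14 was also present in tumor cells, where 8 mice ranged from 29.0 to 120 (median 60.9).

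MMP19 was less restricted. Macrophages had 107 to 390 CPM (median 259), monocytes 97.2 to 223 (median 161) and dendritic cells 35.1 to 242 (median 133). All of these values were above the highest lymphoid value of 25.2. The macrophage level was 1.52-fold that of monocytes (log2 0.60 ± 0.10, adjusted p = 1.20e-05), higher in 13 of 14 mice, and 1.84-fold that of dendritic cells (log2 0.88 ± 0.14, adjusted p = 2.32e-05). Within reaction 1 alone the latter difference was 0.49 ± 0.20 and did not pass (adjusted p = 0.0845).

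MMP2 was scarce. Macrophages had 3.17 to 15.6 CPM (median 6.75), and monocytes had up to 8.79 (median 3.63). Macrophages were above monocytes in 13 of 14 mice. MMP2 passed the filter on low values only through the macrophages, so no test is given. Mast cells had a median of 25.4 CPM over 9 mice, from 0 to 52.5, with 15 UMIs in the whole gate. No MMP2 UMI was found in 234 tumor cells, which allows up to 3.11 CPM in reaction 1 and 3.56 in reaction 2 (3 counts over the gate, counting error only).

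TIMP1, a broad soluble inhibitor, was lower in macrophages (204 to 743 CPM, median 313) than in monocytes (1159 to 2852, median 1455) in 14 of 14 mice, without overlap. The difference was 4.73-fold (log2 -2.24 ± 0.10, adjusted p = 1.64e-15). Dendritic cells stood 3.31-fold above macrophages (log2 of macrophages minus dendritic cells -1.73 ± 0.15, adjusted p = 3.93e-09), with 316 to 2453 CPM (median 1243). Among the dendritic cells, the type 2 cells that carry CD1C or FCER1A had a median of 1839 CPM in 9 mice. Mature cells had 213 in 3 mice. The type 2 cells also held more of the monocyte list, at 5933 CPM in reaction 1 and 5023 in reaction 2, than macrophages (3172 and 2749). The part of this in their TIMP1 was not tested. Plasmacytoid dendritic cells had a median of 66.3 in 5 mice of reaction 2, from 5.58 to 97.8. Lymphoid cells of that reaction had 53.7 to 91.8. Mast cells had 594 to 1165 (median 740).

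TIMP2, which binds MMP14 and pro-MMP2, varied little between mice in macrophages. These had 204 to 235 CPM (median 222), monocytes 138 to 218 (median 167), dendritic cells 57.3 to 146 (median 103) and lymphoid cells 7.80 to 49.1 (median 20.5). The macrophage level was 1.22-fold that of monocytes (log2 0.29 ± 0.05, adjusted p = 3.01e-05) and 2.06-fold that of dendritic cells (log2 1.04 ± 0.09, adjusted p = 1.05e-08). Tumor cells, at 127 to 387 (median 216), did not differ from macrophages by the test (log2 -0.18 ± 0.18, adjusted p = 0.447).

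TIMP3, the matrix-bound inhibitor, had its highest levels in tumor and mast cells. The much larger macrophage gate still held 20.6% of its UMIs in reaction 1 and 43.3% in reaction 2, the largest share in reaction 2. Tumor cells had 111 to 750 CPM in 8 mice (median 223) and macrophages of the same mice 1.496 to 25.1 (median 2.92), lower in 8 of 8 mice and without overlap. With both reactions together, TIMP3 passed the filter on low values only in this comparison, through the tumor cells, so no test is given. Within each reaction alone it also passed for treatment in macrophages and was not called. The log2 differences there were -1.60 ± 0.90 in reaction 1 and -1.55 ± 0.87 in reaction 2 (edgeR adjusted p = 0.647 and 0.915). Mast cells had 0 to 223 CPM in 9 mice (median 110). In reaction 2, 52.7% of 55 mast cells had a TIMP3 UMI, against 0.502% of 2989 lymphoid cells, at median depths of 5446 and 7018 UMIs per cell. TIMP3 was too low to be tested between macrophages and monocytes or dendritic cells. What TIMP3 the macrophage gate held came from few cells: the 10 cells with most of it carried 69.3% of its UMIs in reaction 1 and 90.0% in reaction 2, with up to 64 and 75 UMIs in 1 cell. Of these top cells, 4 of 10 in reaction 1 and 0 of 10 in reaction 2 had any UMI of the tumor list, against 10.2% and 10.9% of all macrophages. The part of depth, doublets or tumor RNA in their TIMP3 was not tested.

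**Figure D2:**
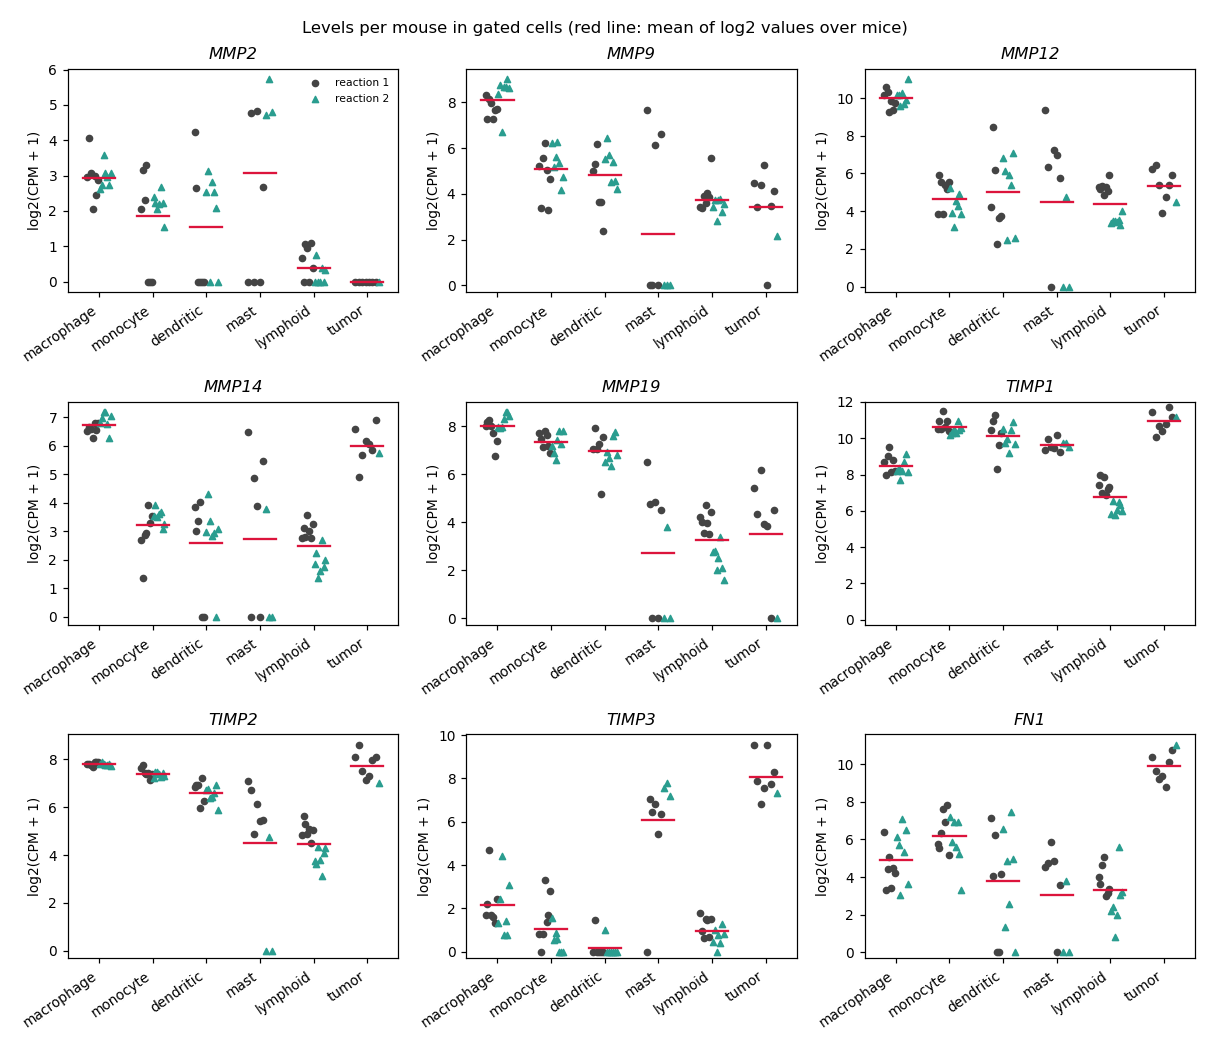
Level of each gene in each mouse, as log2 of CPM plus 1 (y axis), by gate (x axis), with gray circles for reaction 1, green triangles for reaction 2 and a red line at the mean over mice. MMP9, MMP12 and MMP14 stand highest in macrophages, TIMP1 is low in macrophages relative to monocytes, dendritic and tumor cells, TIMP3 is high in tumor and mast cells, and FN1 is highest in tumor cells.

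FN1, the matrix ligand, had its highest level in tumor cells, but most of its UMIs lay outside them. Cells that met no gate held 41.8% of its UMIs in reaction 1 and 17.3% in reaction 2. Macrophages held 13.9% and 30.3%, and monocytes 13.7% and 20.7%. Tumor cells had 447 to 2078 CPM in 8 mice (median 952), and macrophages of the same mice 9.10 to 84.5 (median 19.2), a difference of 44.0-fold (log2 5.46 ± 0.33, adjusted p = 5.63e-12). In the comparison of tumor cells and macrophages 50.9% of 9643 genes were called, 23% higher and 27.9% lower in tumor cells. Of the 8 genes that passed the filter, TIMP3 did so only through the tumor cells, and MMP9 and MMP19 only through the macrophages. All of these are left out of the calls given here. TIMP1 (4.82-fold) and FN1 were higher in tumor cells. MMP12 (28.0-fold) and MMP14 (1.62-fold) were lower, and TIMP2 was not called. MMP9 and MMP19 had 22 UMIs each in the 234 tumor cells, and each was below its macrophage level in 8 of 8 mice. The 8 mice were 7 of reaction 1 and 1 of reaction 2, and the MMP14 call was lost when at least 20 cells a mouse were required (log2 -0.44, adjusted p = 0.185). The protease levels in tumor cells were near those of lymphoid cells for MMP9 (median 13.3 CPM) and MMP19 (median 16.7). For MMP12 in reaction 1, tumor cells of 7 mice had 14.1 to 87.1 CPM (median 40.8), around the lymphoid values of 27.9 to 60.5. The 28.0-fold difference of MMP12 is thus largely one between macrophages and the background level. Among myeloid cells, FN1 was higher in monocytes (9.08 to 225 CPM, median 68.8) than in macrophages (7.25 to 135, median 27.0), by 2.38-fold (log2 of macrophages minus monocytes -1.25 ± 0.37, adjusted p = 0.0045), in 10 of 14 mice. This rested on reaction 1 (-2.02 ± 0.37, adjusted p = 0.000207), and in reaction 2 the difference did not pass (-0.63 ± 0.46, adjusted p = 0.251).

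The myeloid FN1 was unevenly held. In reaction 2, 10 of 2196 macrophages carried 57.8% of the FN1 UMIs of their gate (31 to 298 UMIs each), and 10 of 1213 monocytes carried 62.5% (23 to 211 each). In reaction 1 the top 10 cells carried 35.8% in macrophages and 46.0% in monocytes. Each of these sets of 10 came from 4 mice (macrophages) or 6 mice (monocytes). These cells were deeper than their gates. The median UMIs per cell were 12997.5 against 4473.5 in macrophages of reaction 1 and 17358 against 12984.5 in reaction 2. In monocytes they were 15135.5 against 5314 and 15412.5 against 10985. The part of depth or of doublets in their FN1 and marker values was not tested. A UMI of the tumor list was found in 0 of the 10 macrophages of reaction 1 and 1 of the 10 of reaction 2, against 10.2% and 10.9% of all macrophages, and in 0 and 1 of the 10 monocytes, against 5.08% and 3.96% of all monocytes. In reaction 2 the top macrophages had a median of 85.1 monocyte-list UMIs per 10000, and all macrophages 15.0, while their macrophage-list medians were 25.2 and 43.9. FN1-rich macrophages thus carried more monocyte marker RNA in reaction 2; in reaction 1 the monocyte-list medians were 34.6 and 21.9. These cells were picked for their FN1, so the values are a description.

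**Figure D3:**
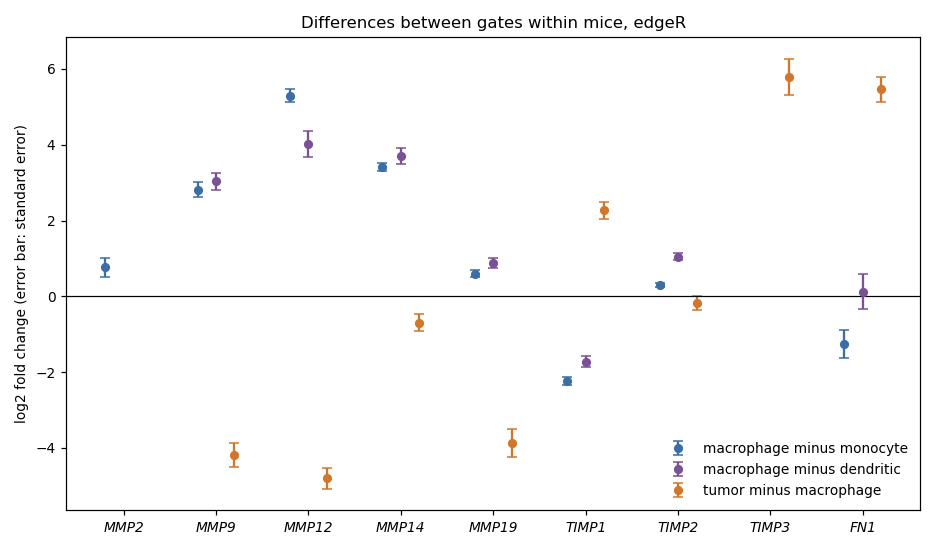
Log2 differences between gates within mice (y axis, points with bars of 1 standard error from edgeR) for each gene tested (x axis), for macrophages minus monocytes, macrophages minus dendritic cells and tumor cells minus macrophages. MMP9, MMP12 and MMP14 lie far above 0 in both macrophage comparisons and TIMP1 lies below 0. TIMP3 and FN1 are far above 0 for tumor cells. TIMP3 passed the filter on low values only through the tumor cells, so its point is not read as a test. The same holds, through the macrophages, for MMP2 against monocytes, MMP14 against dendritic cells, and MMP9 and MMP19 in the tumor comparison.

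Within macrophages, levels of MMP9, MMP12 and MMP19 differed between states, and several of these differences depended on the settings. In the GLUT1 and cycling states the share of all genes called was near that of the genes followed here. A call in these states therefore sets no gene apart. In the GLUT1 state, whose marker genes respond to hypoxia, MMP12 had 980 to 4386 CPM in 13 mice (median 2536), against 522 to 1984 (median 985) in the remaining macrophages of these mice. It was higher in 12 of 13 mice, by 2.77-fold (log2 1.47 ± 0.27, edgeR adjusted p = 1.26e-05). TIMP2 was also higher in this state (1.36-fold, log2 0.44 ± 0.09, adjusted p = 0.000124), and these were 2 of 7 genes tested, both higher, where 31.2% of 7209 genes were called, 16.4% higher. With doubled marker thresholds neither passed (MMP12 1.26, adjusted p = 0.0672), and TIMP2 did not pass in reaction 2 alone (0.31 ± 0.14, adjusted p = 0.149). MMP2 and TIMP3 were too low for a test in any state.

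In the LYVE1 state, which carries the resident macrophage markers LYVE1, FOLR2 and SELENOP, the same protease was lower in the mice that could be tested. MMP12 had 3.38 to 320 CPM in 5 mice (median 71.6), against 807 to 1984 (median 1139) in the remaining macrophages of those mice, without overlap. The difference was 8.78-fold (log2 -3.13 ± 0.49, adjusted p = 5.92e-07). The 25 LYVE1 cells of the reaction 1 mice under the limit of 10 cells were not low: they had 1093 CPM (188 UMIs), against 960 in the remaining macrophages of that reaction. The 16 such cells of reaction 2 had 89.8 CPM (18 UMIs). MMP9 was lower too, at 11.01 to 91.3 (median 58.4) against 105 to 411 (median 232), a difference of 4.79-fold (log2 -2.26 ± 0.39, adjusted p = 5.54e-06), again without overlap. TIMP1 was higher in 5 of 5 mice (1.71-fold, log2 0.77 ± 0.28, adjusted p = 0.0365), by as little as 247 against 246 CPM in 1 of them. The call was lost in reaction 1 alone (0.41 ± 0.39, adjusted p = 0.613) and in 3 other settings (adjusted p = 0.0655 with total UMIs in place of TMM, 0.0692 with at least 20 cells and 0.184 without the mouse block). These were 3 of 7 genes tested, with 21.9% of all genes called in this state, 10.8% higher and 11% lower.

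In the MT1G state, defined by metallothioneins, TIMP1, FN1 and MMP9 were higher, 3 of 7 genes tested against 4.8% of all genes called, 2.54% higher and 2.26% lower. TIMP1 had 239 to 3377 CPM in 7 mice (median 939) and the remaining macrophages of those mice 236 to 681 (median 269), a difference of 3.87-fold (log2 1.95 ± 0.24, adjusted p = 1.08e-08), in 6 of 7 mice. Few cells held much of it. The 10 cells with most TIMP1 carried 70.8% of its UMIs in this state in reaction 1 (113 cells) and 75.8% in reaction 2 (80 cells). The highest single cells had 313 and 323 UMIs. MMP9 had 312 to 787 (median 439) against 150 to 398 (median 228), or 2.05-fold (log2 1.03 ± 0.25, adjusted p = 0.00745). In reaction 2 alone the difference was 0.21 ± 0.32 (adjusted p = 0.885). The call was also lost without the mouse block (adjusted p = 0.0598) and with doubled marker thresholds (0.482). The MT1G cells of mice under the limit of 10 cells had 87.9 CPM of MMP9 in reaction 1 (16 cells, 9 UMIs), against 199 in the remaining macrophages. In reaction 2 they had 573 (28 cells, 206 UMIs), against 318. FN1 had 9.97 to 1014 (median 71.0) against 3.47 to 96.2 (median 22.3), or 7.32-fold (log2 2.87 ± 0.46, adjusted p = 1.04e-05), but it was higher in only 4 of 7 mice. The value of 1014 came from 14 cells of untreated mouse 6, and the difference did not pass in reaction 1 alone (1.04 ± 0.48, adjusted p = 0.339). With at least 20 cells a mouse it was 1.88 ± 0.54 and fell just short (adjusted p = 0.05002). Monocyte markers moved with this state: the monocyte list stood at 5139 CPM in reaction 1 and 6371 in reaction 2, against 3290 and 2604 in the remaining macrophages, and its part in the TIMP1 and FN1 values was not tested.

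In the IL1A state, marked by inflammatory cytokines, MMP19 was higher in 8 of 8 mice, at 391 to 965 CPM (median 670) against 153 to 417 (median 283). The difference was 2.57-fold (log2 1.36 ± 0.20, adjusted p = 8.74e-07) and passed in each reaction alone. MMP9 was 1.69-fold higher (log2 0.76 ± 0.24, adjusted p = 0.0311), in 7 of 8 mice. The MMP9 call was lost in each reaction alone (adjusted p = 0.432 and 0.0775), with total UMIs in place of TMM (0.0668) and without the mouse block (0.103). These were 2 of 7 genes tested against 10.5% of all genes called, 6.23% higher and 4.3% lower. In cycling macrophages, MMP19 was lower in 13 of 13 mice (median 122 against 277, 2.18-fold, log2 -1.12 ± 0.19, adjusted p = 2.01e-06). So was TIMP1 (median 177 against 312, 1.80-fold, log2 -0.85 ± 0.21, adjusted p = 0.00093). These were 2 of 7 genes tested against 31.1% of all genes called, 16.4% higher and 14.8% lower. In the CXCL10 state, TIMP1 (log2 -0.58 ± 0.20, adjusted p = 0.0464) and FN1 (log2 -1.62 ± 0.53, adjusted p = 0.0354) were lower, in 13 and 12 of 14 mice, 2 of 7 genes against 10.4% of all genes called, 6.55% higher and 3.86% lower. Both calls were close to the threshold and were lost under several other settings, and with doubled marker thresholds FN1 turned to 0.070. MMP14 was called in no state at the thresholds used here, with medians between 69.8 CPM (MT1G) and 114 (GLUT1 and cycling).

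**Figure D4:**
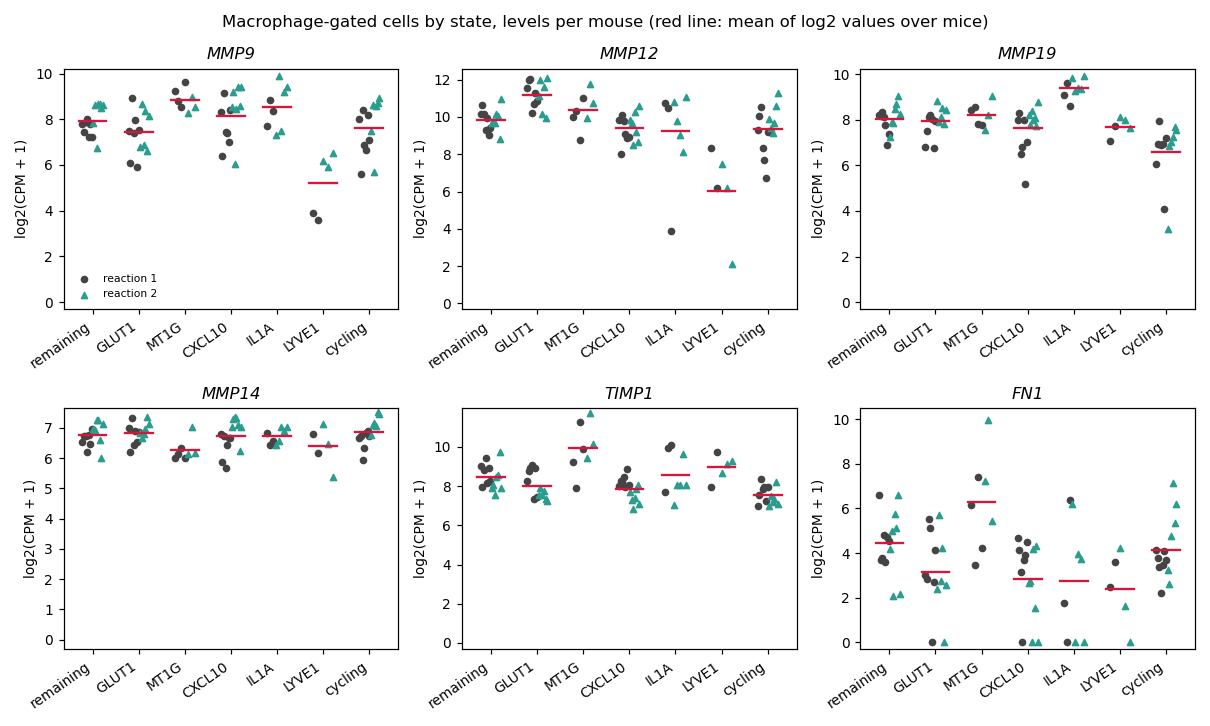
Levels per mouse in the macrophage states, as log2 of CPM plus 1 (y axis), for MMP9, MMP12, MMP19, MMP14, TIMP1 and FN1, with gray circles for reaction 1, green triangles for reaction 2 and a red line at the mean over mice. MMP12 is highest in the GLUT1 state and lowest in the LYVE1 state, MMP19 is highest in the IL1A state, and TIMP1 and FN1 are highest in the MT1G state.

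Across 13 gates and states, the pattern of each gene was set beside those of 9172 other genes by Pearson's correlation of mean log2 levels, as a description, since the gates share mice and libraries. MMP9 was closest to TREM2 (r = 0.976) and MMP12 to KCNMA1 (r = 0.97), with TREM2, a lipid receptor of macrophages, among the 3 closest genes of both. MMP14 was closest to ITGB5 (r = 0.993), the beta chain of an integrin that binds vitronectin. MMP19 was closest to MS4A14 (r = 0.986), MMP2 to NCOA4 (r = 0.949), TIMP2 to RIN2 (r = 0.967), TIMP1 to VIM (r = 0.904) and FN1 to IGFBP7 (r = 0.898). TIMP3 was closest to KRT19 (r = 0.982), a keratin that served as a tumor marker and that was also found in the mast gate, at 79.6 CPM in reaction 1 and 169 in reaction 2. Between the genes themselves, MMP9 and MMP12 had r = 0.94, TIMP2 had r = 0.81 with MMP14 and 0.76 with MMP19, and TIMP1 and FN1 had r = 0.72.

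A list of 71 further genes of matrix turnover was read in the same tests. Of 31 tested between macrophages and monocytes, 14 were higher and 15 lower in macrophages (33.2% and 32.9% of all genes). Higher ones included A2M, a broad protease inhibitor (16.2-fold), and the integrin chains ITGB5 (12.6-fold) and ITGB3 (10.4-fold). Lower ones included SERPINB2, an inhibitor of urokinase (12.9-fold), and the matrix glycoprotein THBS1 (3.997-fold). Of 26 genes tested against dendritic cells, 13 were higher (26.4% of all genes), with PLAU (urokinase, 7.48-fold) and the protease CTSL (6.80-fold), and 6 were lower (25.7%), with SDC2 (3.87-fold). Tumor cells were above macrophages in 15 of 38 genes (23% of all genes), among them the collagen crosslinker LOX (96.5-fold) and COL6A1 (87.1-fold). They were below macrophages in 15 (27.9%), among them the cathepsins CTSS (10.7-fold) and CTSB (7.26-fold). Only 32 genes of the list could be tested within macrophages, so some of the 38 passed the filter only through the tumor cells. Within monocytes 26 could be tested, and within dendritic cells 23. Some of the genes tested against these 2 gates thus passed the filter only through the macrophages. The counts of higher genes and the A2M, ITGB5, ITGB3, PLAU, CTSL, LOX and COL6A1 folds are therefore a description.

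In the states, 25 genes of this list were tested, and the shares in brackets are those of all genes. In the GLUT1 state 12 were higher (16.4%), among them the collagen hydroxylase subunit P4HA1 (3.65-fold) and the syndecan SDC2 (2.76-fold), and 2 were lower (14.8%). In the LYVE1 state 3 were higher (10.8%), with CTSL (4.02-fold) and TGFBI (2.32-fold), and 8 were lower (11%), with THBS1 (14.7-fold) and ITGA4 (5.44-fold). In the IL1A state 8 were higher (6.23%), with the hyaluronan receptor CD44 (2.33-fold) and PLAUR, the urokinase receptor (1.98-fold), and none was lower (4.3%). In cycling cells none was higher (16.4%) and 12 were lower (14.8%). In the MT1G state 1 was higher (CTSL, 1.84-fold; 2.54%) and 2 were lower (2.26%), and in the CXCL10 state 1 was higher (6.55%) and 4 were lower (3.86%). The median log2 difference of the list was 0.19 in the GLUT1 state (all genes -0.05), -0.23 in the LYVE1 state (-0.02), 0.14 in the IL1A state (-0.01), -0.22 in cycling cells (-0.0059), 0.04 in the MT1G state (0.01) and -0.18 in the CXCL10 state (-0.01).

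The comparison of treated with untreated mice asked whether maraviroc went with a change of these genes. None of them passed in macrophages, monocytes or dendritic cells. In macrophages 8 of the 9 genes could be tested, all with an edgeR adjusted p of 0.9996, and 0% of 11479 genes were called (432 had an unadjusted p under 0.05). In monocytes 7 were tested and 0% of 8702 genes were called (337 unadjusted), and in dendritic cells 6 were tested and 0% of 6666 genes were called (615 unadjusted). DESeq2 called 0, 0 and 12 genes. MMP12 in macrophages was 1091 ± 317 CPM (SD, n = 7) in untreated and 1069 ± 471 (n = 7) in treated mice (log2 -0.10 ± 0.24 SE). TIMP1 in macrophages was 392 ± 186 and 366 ± 107 (log2 -0.0056 ± 0.26). These ranges overlapped widely. FN1 had the widest error (log2 -0.08 ± 0.62) and TIMP2 the narrowest (0.02 ± 0.05). The list of 71 genes had 32, 26 and 23 genes tested in the 3 gates, of which 0 were called. Of the 9 genes, the median log2 difference over those tested was -0.04 in macrophages (all genes 0.0036), 0.0052 in monocytes (all genes -0.0039) and -0.53 in dendritic cells (all genes 0.0069). The last was not found in reaction 2 alone, where TIMP1 (0.14 ± 0.36), FN1 (0.40 ± 1.11) and MMP19 (0.59 ± 0.33) were above 0.

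MMP9 in dendritic cells came nearest to a call. Untreated mice had 30.9, 38.6, 44.5, 50.5, 71.2 and 86.9 CPM, and treated mice had 4.18, 11.6, 11.7, 17.4, 21.9, 22.4 and 41.4. One untreated mouse of reaction 1, with 9 dendritic cells and 25.6 CPM, was below the limit of 10 cells and was left out. All 7 treated mice lay below the untreated median of 47.5; among the 13 mice used, the groups overlapped only through the treated mouse at 41.4, and they did not overlap within either reaction. The log2 difference was -1.43 ± 0.32 (2.70-fold, edgeR adjusted p = 0.294 over 6666 genes; unadjusted p = 0.000328), and DESeq2 gave -1.50 ± 0.37 with an adjusted p of 0.0422. Within reaction 2 the difference was -1.13 ± 0.35; reaction 1, with 3 mice in each group, gave no fitted value, and its means were 46.9 and 9.14 CPM. The values rest on few molecules, 7 to 56 UMIs in an untreated mouse and 1 to 43 in a treated one, and on few cells. The single cell with most MMP9 held 34.8% to 100% of the UMIs of an untreated mouse (median 62.7%, 7 to 32 UMIs) and 14.3% to 100% of those of a treated mouse (median 33.3%, 1 to 19 UMIs). Cells with any MMP9 UMI were 6.25% to 25% of the gate in untreated mice (median 21.1%) and 4.35% to 25.6% in treated mice (median 19.2%), against 6.63% of lymphoid cells, at median depths of 14790 UMIs in dendritic and 5871.5 in lymphoid cells. The make-up of the gate moved with them: type 2 dendritic cells were 56.3% to 94.4% of it in untreated mice (median 73.3%) and 26.1% to 76.7% in treated mice (median 46.7%). In the type 2 cells alone MMP9 was 40.9 to 129 CPM in the same 6 untreated mice (median 57.9) and 0 to 57.9 in the 7 treated mice (median 19.4), from 6 to 49 cells a mouse. The part of the make-up in the result was not tested. The macrophage list in the gate was 151 to 228 CPM in untreated and 119 to 255.2 in treated mice.

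MMP19 in macrophages went opposite ways in the reactions. In reaction 1, untreated mice had 258, 261, 294 and 308 CPM and treated mice 107, 167 and 213. In reaction 2, untreated mice had 246, 250.5 and 253.8 and treated mice 316, 341, 386 and 390. Treated mice were below all untreated mice in reaction 1 and above them all in reaction 2, so the pooled difference was near 0 (log2 -0.11 ± 0.21, adjusted p = 0.9996). The treatment differences were -0.81 ± 0.19 in reaction 1 (adjusted p = 0.349) and 0.55 ± 0.10 in reaction 2 (adjusted p = 0.655), and the difference between them was 1.37 ± 0.24 (edgeR adjusted p = 0.165). No gene had an adjusted p under 0.05 for this difference by edgeR in macrophages (0 of 11479, with 1091 at an unadjusted p under 0.05). What separates the reactions beyond depth is not given in the sources used here.

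**Figure D5:**
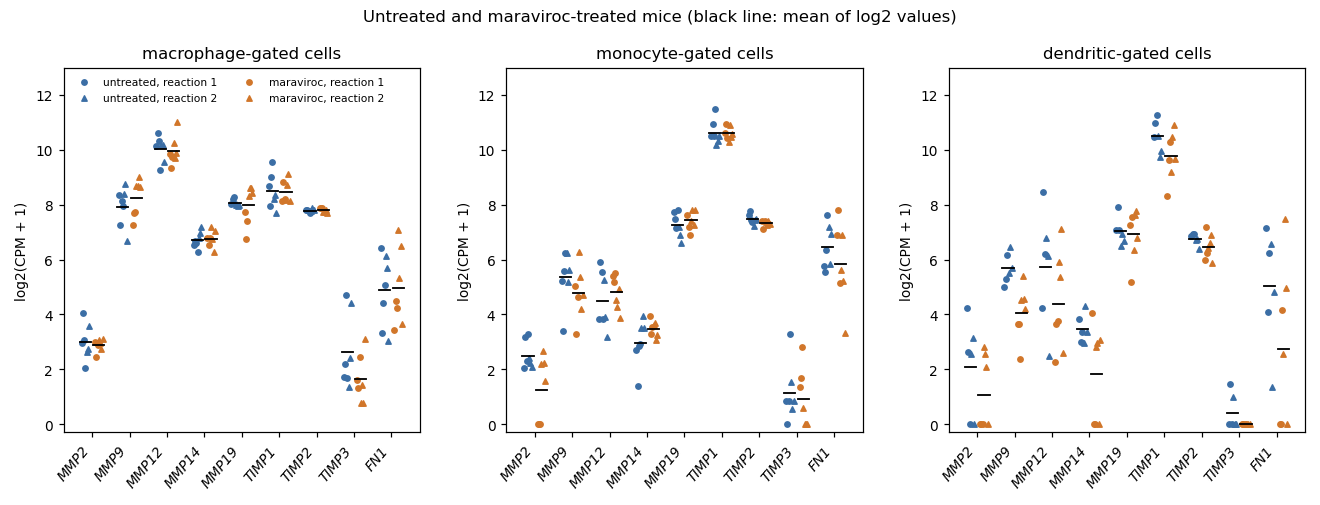
Levels per mouse as log2 of CPM plus 1 (y axis) for each gene (x axis) in macrophage-gated, monocyte-gated and dendritic-gated cells, with untreated mice in blue and maraviroc-treated mice in orange, circles for reaction 1, triangles for reaction 2 and a black line at the mean of each group. The groups overlap for all 9 genes in macrophages and monocytes, and in dendritic cells MMP9 of the treated mice lies mostly below that of the untreated mice.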

How the data were processed

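For each reaction the authors deposited UMI counts per gene and per hashtag for the barcodes that Cell Ranger 9.0.1 called as cells (GRCh38, 3' chemistry), without normalization. The treatment of each mouse was read from the hashtag names in the feature lists, because no sample label states it. The 9 genes, the further lists and the tests were chosen with earlier results of these data known, and the thresholds of the gates were set after the marker levels had been seen.

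Hashtags were called with HTODemux in Seurat 5.3.0 (R 4.3.3, centered log-ratio, positive quantile 0.99), singlets were kept, and no further doublet caller was run. Marker UMIs per 10000 set the gates: macrophages at least 16, monocytes at least 32 and lymphoid cells at least 16, each with at least 3 UMIs. A limit of under 8 applied to lists of other types, but not to all of them. In macrophages the monocyte list was not so limited, with medians of 21.9 (reaction 1) and 15.0 (reaction 2). Dendritic gates needed 3 UMIs (type 1 cells 2), mast and tumor gates 5. States needed 8 (IL1A 4) and exactly 1 state per cell. UMIs were summed per mouse and gate (at least 10 cells) and tested with edgeR 4.0.16 (TMM, filterByExpr, quasi-likelihood, Benjamini-Hochberg over all genes tested), with reaction as a term for treatment and mouse as a term between gates. All gates of a mouse come from 1 animal, hashtag and reaction, which is where the pairing comes from. DESeq2 1.42.0 was an alternative, as were other limits, quantiles, markers, scalings and each reaction alone. The scripts were tested on simulated data. From the matrix turnover list, at most the 3 genes with the largest rise and fall among those called were named per comparison (some of them are not reported here), and for each of the 9 genes the closest patterns (mean log2 of CPM plus 5, genes at a mean of at least 10 CPM). Intervals and limits for a count of 0 cover counting error only.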

Additional observations from a re-analysis of the deposited data

Results flagged for a closer look

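In 7 of 53 groups of mice checked, 1 mouse stood apart by Dixon's test at the 95% level. That test flags about 1 in 20 groups by chance when values are normally distributed. It was run on CPM without a log scale, and all 7 flags were high values, so their number cannot be set against that rate. MMP12 in macrophages was 2066 CPM in maraviroc mouse 7 (next 1216). TIMP3 in monocytes was 8.79 CPM in untreated mouse 4 (next 1.91) and 5.998 in maraviroc mouse 3 (next 2.18). In dendritic cells MMP12 was 355 CPM in untreated mouse 3 (next 110) and 136 in maraviroc mouse 6 (next 58.5), MMP19 was 242 in untreated mouse 3 (next 133), and FN1 was 176 in maraviroc mouse 5 (next 30.4).

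The treatment difference of MMP19 in macrophages was flagged because it ran opposite ways in the reactions, by 1.37 on the log2 scale (edgeR adjusted p = 0.165 over all genes). An exact two-sided permutation of treatment within the reactions gave p = 0.000816, the smallest that its 1225 arrangements allow, for a difference of 1.35 in log2(CPM + 1). It was 1 of 27 such tests, of which 6 had p under 0.05 without adjustment, and it was singled out after its values were seen. The other 5 were MMP19 in monocytes (-0.31 in reaction 1 and 0.67 in reaction 2, exact p = 0.0155), MMP9 in macrophages (-0.37 and 0.81, exact p = 0.0424), MMP2 in monocytes (-2.70 and -0.07, exact p = 0.0261), and, with the opposite sign of the difference, TIMP2 in macrophages (0.11 and -0.07, exact p = 0.00327) and MMP14 in monocytes (1.12 and -0.25, exact p = 0.0131). MMP2 was too low for the edgeR test in monocytes, and all 3 treated mice of reaction 1 had 0 CPM of it there. For MMP19 in macrophages, all 3 treated mice of reaction 1 were lower and all 4 of reaction 2 higher than the untreated mice beside them.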

How the results depend on the processing

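The treatment comparisons called 0 genes, and leaving out 1 mouse at a time kept this at 0 to 0 in every gate. With all genes of at least 1 count, 5 genes were called in macrophages, 33 in monocytes and 307 in dendritic cells, 2 of the 9 genes among the last (MMP9 -1.45, adjusted p = 7.12e-05, and MMP12 -1.28, adjusted p = 1.92e-05). The main edgeR fit gave MMP12 -1.24 ± 0.73 (adjusted p = 0.632), and reaction 2 alone gave -0.16 ± 0.68. Untreated mouse 3, of reaction 1, had 355 CPM of MMP12 in dendritic cells, and the next untreated mouse 110. DESeq2 called 12 genes in dendritic cells, 1 of the 9 (MMP9), and reaction 1 alone called 4 genes in monocytes. Between macrophages and dendritic cells 4761 genes were called, and 2352 in reaction 1 alone. Over the 6 states 7926 calls fell to 3690 in reaction 1 and 4571 in reaction 2, each with fewer mice. Of the 9 genes, 14 calls in states became 9 with doubled marker thresholds (chosen after seeing the data), 9 in reaction 1 alone and 22 with all genes of at least 1 count. The cause of these changes was not tested. FN1 in the CXCL10 state reversed to 0.070 with doubled thresholds.

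Without the replicate block, that is with reaction in place of mouse, calls of the 9 genes in states were 9. The pairing changed no count of the 9 genes between gates, nor any treatment count when reaction was left out. Counting each gene and setting, 694 values between gates or states kept direction and side of the threshold, 33 lost the call, 14 gained it, 16 moved and 1 reversed; for treatment 499 kept it, 3 gained a call and 15 moved. The dendritic, mast, tumor and LYVE1 values rest on few cells, and the small gates of the shallower reaction 1 also held markers of other cells.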
